A study of Homo sapiens with 6 samples.

Results

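The proteasome is the large protease that degrades proteins tagged with ubiquitin. Its subunits and assembly factors were chosen by gene symbol: every symbol made of PSM, a letter from A to G and a number, with one symbol left out, plus POMP, PAAF1 and ADRM1. The rule matched 63 of the 63563 rows of the deposited gene table. Of these, 48 are genes on the primary chromosomes and form the set described here, 14 are copies of PSMB8 and PSMB9 on 7 alternative haplotype sequences of the MHC region, and 1 is a second row under the symbol PSMA2. Of the 48 genes, 44 reached at least 1 FPKM (fragments per kilobase of transcript and per M fragments) in at least 3 libraries and were tested, and 4 were not.

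RKO is an established human colorectal cancer line, and its poly(A) RNA was sequenced after stable transfection with a pcDNA3.1 expression vector. The control group, EV, carried the vector alone and is labelled wild type for genotype (3 libraries). The other group, OVER43, carried the same vector with the cDNA of connexin 43 (Cx43), the gap junction protein encoded by GJA1 (3 libraries). Both groups thus share the vector and the stable transfection. The sources used here do not say whether a group is a pool or 1 clone, nor whether its 3 libraries came from separate cultures. The p-values therefore measure only the spread between these libraries, which may be technical.

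The proteasome has a barrel-shaped 20S core, built of outer alpha rings and inner beta rings. Beta subunits carry the peptidase sites, and the 19S cap recognises ubiquitin chains, removes them and unfolds the substrate with a ring of ATPases. Dedicated chaperones assemble both, activators such as PA28 can replace the cap, and after interferon the catalytic subunits are exchanged for those of the immunoproteasome. When proteasome capacity falls short, the transcription factor NRF1, encoded by NFE2L1, is known to raise the transcription of most subunits together through antioxidant response elements.

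The promoters of the 4 members with the largest rise off chromosome 14 that have an entry in the RefSeq promoter table are shown, because they lie outside the chromosome on which the largest differences fell. Each is the run of 250 bases before the annotated start on the plus strand, from RefSeq on GRCh38.p14, 5′ to 3′. Capitals mark matches to the core of the antioxidant response element (TGACNNNGC) or to the CCAAT box (CCAAT), searched on both strands, so a match on the other strand appears as its complement read backwards.
PSMD2, chr3:184298991-184299240: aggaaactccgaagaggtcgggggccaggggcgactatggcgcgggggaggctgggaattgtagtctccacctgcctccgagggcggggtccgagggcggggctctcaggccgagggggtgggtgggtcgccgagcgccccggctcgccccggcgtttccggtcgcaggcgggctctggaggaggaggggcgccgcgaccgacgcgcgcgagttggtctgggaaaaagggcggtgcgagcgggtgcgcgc
PSMG4, chr6:3258697-3258946: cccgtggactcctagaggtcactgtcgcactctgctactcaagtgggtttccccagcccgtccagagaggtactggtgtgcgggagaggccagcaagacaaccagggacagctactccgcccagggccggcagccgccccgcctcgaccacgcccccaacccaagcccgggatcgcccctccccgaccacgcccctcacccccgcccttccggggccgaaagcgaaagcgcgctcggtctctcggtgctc
ADRM1, chr20:62302646-62302895: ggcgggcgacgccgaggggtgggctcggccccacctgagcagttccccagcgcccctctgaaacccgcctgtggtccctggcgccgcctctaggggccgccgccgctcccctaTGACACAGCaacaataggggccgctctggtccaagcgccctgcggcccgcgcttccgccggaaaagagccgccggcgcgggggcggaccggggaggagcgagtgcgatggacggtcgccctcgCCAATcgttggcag
PSMD9, chr12:121888540-121888789: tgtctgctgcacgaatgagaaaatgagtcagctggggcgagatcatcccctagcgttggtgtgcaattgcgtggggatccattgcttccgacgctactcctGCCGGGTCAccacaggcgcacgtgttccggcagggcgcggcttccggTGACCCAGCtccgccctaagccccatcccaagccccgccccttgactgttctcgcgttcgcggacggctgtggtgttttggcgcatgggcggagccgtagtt
The PSMD2 and PSMG4 windows hold no match to either motif, the ADRM1 window holds 1 of each, and the PSMD9 window holds 2 matches to the antioxidant response core. Such matches are letters in a window, not measured binding, and where a gene has 2 windows in the table, as PSMD2 and ADRM1 do, the first is printed.

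Over the whole promoter table, 42 of the 48 members had an entry, with 52 windows. The antioxidant response core was found in 13 of the 52 member windows (25.0%), against 10.9% of all 35116 windows of the same length. The CCAAT box was found in 20 of the member windows (38.5%), against 32.0% of all windows. Of the members called higher that have a window, 9 of 26 held the antioxidant response core, and of the other tested members, 2 of 12 did. The CCAAT box was in 12 of the 26 and in 5 of the 12. These shares are given as a description, with no test.

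The libraries held 42.6 to 52.2 M fragments on the scale of the deposited FPKM, as read from the steps of low values, and replicates of a group correlated at 0.988 to 0.992 on the log2 scale across genes. GJA1, at 23.20, 26.05 and 24.94 FPKM in OVER43 and 0.300, 0.351 and 0.394 in EV, matched the labels. Means are given with their SD (n = 3 each), OVER43 before EV. Of 5 colon epithelial markers, 4 reached 1 FPKM, and none of 6 leukocyte and 6 fibroblast markers did. Library sums of FPKM ran from 554456 to 566947 for OVER43 but from 500546 to 509175 for EV, a gap that bears on every small difference below. Fold changes are OVER43 minus EV on the scale of log2(FPKM + 1), with the limma adjusted p over all 12205 tested genes, and a gene was called at an adjusted p under 0.05. In bulk RNA, fewer cells of a kind and less RNA per cell cannot be told apart.

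Of the 44 tested members, 28 were higher in OVER43, 4 were lower and 12 were not called. Over all tested genes, 28.4% were called higher and 17.5% lower, so the members' share of higher calls was 63.6% and that of lower calls 9.09%. The median log2 fold change of the members was 0.22, against 0.053 for all tested genes. In 30 members every OVER43 library lay above every EV library, and in 4 every OVER43 library lay below, where all genes gave 33.9% and 22.4%. Most members are highly expressed, and the background differs by level. Among the 1788 tested genes with a mean of 50 FPKM or more, 61.2% were called higher and 12.4% lower, with a median of 0.19, and 22 of the 35 members at that level were higher and 3 lower, with a median of 0.22. The members' share of higher calls at that level is therefore near the background. Among the 5245 genes at 10 to 50 FPKM, 32.8% were called higher with a median of 0.081, and 6 of 8 members were higher and 1 lower with a median of 0.22.

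The counts depended on the scaling between libraries. As deposited, the median over members of the level against the EV mean lay at 0.18, 0.19 and 0.22 on the log2 scale in OVER43 libraries 0, 1 and 2, and at 0.021, 0.017 and -0.033 in the EV libraries. With TMM scaling, which equalises the bulk of genes, 25 members were higher and 4 lower (23.3% and 21.0% of all genes). With quantile scaling, which makes the distributions of all libraries equal, 16 were higher and 12 lower (21.1% and 19.9%). With every library scaled to the same FPKM sum, 16 were higher and 8 lower (15.3% and 29.3%). The median of all tested genes was 0.0070, 0.016 and -0.076 under these 3 scalings, and the members' median was 0.17, 0.046 and 0.079. At 50 FPKM or more, the medians were 0.13, 0.015 and 0.043 for all tested genes and 0.17, 0.028 and 0.081 for the 35 members. The shares of calls at that level are not given for these scalings. A set of 14 members was called higher under all 4 scalings: the 6 on chromosome 14 and PSMD2, PSMG4, ADRM1, PSMA7, PSMC2, PSMA4, PSMG1 and PSMD10. The 4 lower members, PSMB1, PSMB7, PSMD5 and PSMD7, were called lower under all 4. The share of all tested genes called alike under all 4 scalings is not given here, so these counts have no background beside them. The members called lower in addition were PSMA1, PSMB2, PSMB4, PSMB6, PSMD1, PSMD3, PSMD4 and PSMF1 under quantile scaling, and PSMA1, PSMB2, PSMD1 and PAAF1 under equal sums. Without the filter on low values, 22 members were higher and 2 lower: the calls of PSMA5, PSMD13, PSMD9, PSMG4, PSMG3, PSMF1, PSMB1 and PSMD7 were lost (adjusted p 0.0515 to 0.153).

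**Figure D1:**
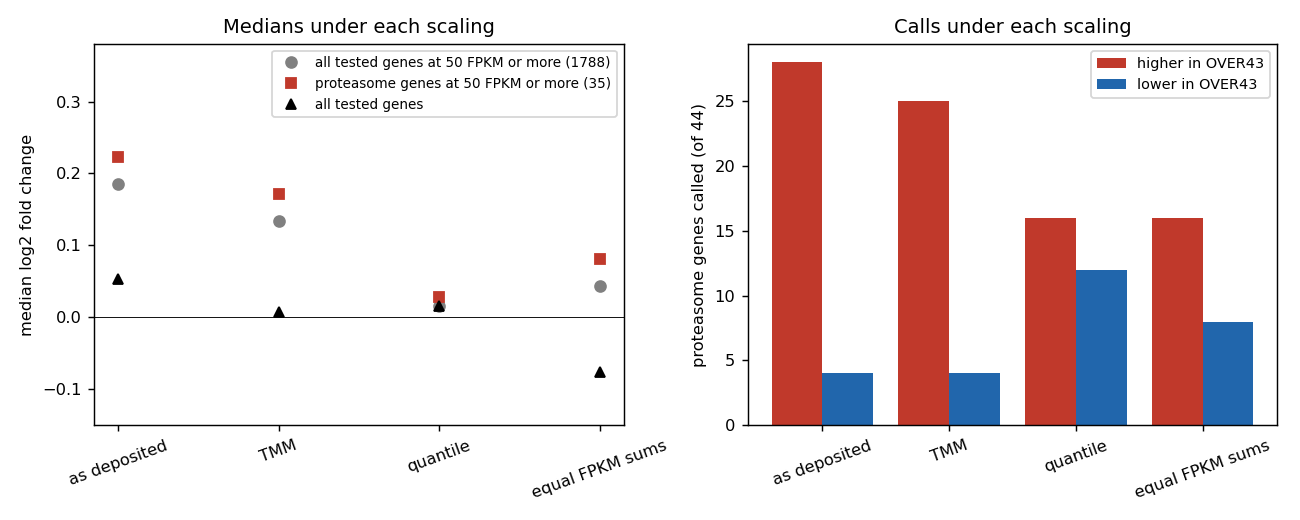
Left, the median log2 fold change (OVER43 minus EV) under 4 scalings for all tested genes, for the 1788 tested genes with a mean of 50 FPKM or more and for the 35 proteasome genes at that level. Right, how many of the 44 tested proteasome genes were called higher (28, 25, 16 and 16) or lower (4, 4, 12 and 8) under each scaling.

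The 6 largest rises were those of the 6 tested members on chromosome 14, a chromosome on which most expressed genes were higher in OVER43. PSME1, the alpha subunit of the PA28 activator (hg19 chromosome 14, 24605367 to 24610797), stood at 194.3, 202.8 and 203.6 FPKM in OVER43, while EV gave 117.8, 115.3 and 114.6. That is a log2 fold change of 0.78 (SE 0.031, limma adjusted p = 1.8e-06), the largest of the set, and the groups lay far apart. Its partner PSME2, which the table lists together with a microRNA gene so that the symbol rule does not match it, lies beside it on chromosome 14 and stood at 151.7 ± 4.01 FPKM against 96.04 ± 1.40 FPKM (0.65, limma adjusted p = 5.91e-06).

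PSMB5, which carries the chymotrypsin-like site of the core (hg19 chromosome 14, 23485752 to 23504439), stood at 215.8, 221.4 and 235.1 FPKM in OVER43, while EV gave 140.9, 141.5 and 128.7. The log2 fold change was 0.71 (SE 0.048, limma adjusted p = 2.3e-05), with no overlap between the groups. PSMC1, the ATPase Rpt2 (hg19 chromosome 14, 90722839 to 90738968), stood at 147.8, 128.2 and 141.5 FPKM in OVER43, while EV gave 91.23, 86.73 and 89.14. Its log2 fold change was 0.64 (limma adjusted p = 5.94e-05), and its lowest OVER43 library, library 1, still lay well above every EV library. PSMC6, the ATPase Rpt4 (hg19 chromosome 14, 53173890 to 53195305), stood at 84.93, 84.10 and 86.31 FPKM in OVER43, while EV gave 56.06, 58.80 and 53.60, a log2 fold change of 0.59 (limma adjusted p = 2.88e-05).

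PSMA6, an alpha ring subunit whose locus in the table spans overlapping genes (hg19 chromosome 14, 35514113 to 35786699), stood at 209.1, 206.2 and 226.2 FPKM in OVER43, while EV gave 144.3, 142.2 and 138.2. PSMA3, also of the alpha ring (hg19 chromosome 14, 58466453 to 58764857), stood at 130.6, 123.6 and 128.6 FPKM in OVER43, while EV gave 98.57, 93.59 and 87.96. Their log2 fold changes were 0.59 and 0.45 (limma adjusted p = 2.54e-05 and 0.00017), and in both genes the groups did not overlap. The seventh chromosome 14 member, PSMB11, belongs to the proteasome of the thymus and did not exceed 0.0375 FPKM in any library.

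On chromosome 14, 68.2% of the 431 tested genes were called higher and 6.03% lower, with a median log2 fold change of 0.43, against 26.9% and 17.9% of the tested genes on other chromosomes. Set against the 40 nearest other tested genes, the 6 members lay 0.12 to 0.29 above the median of their neighbours, with a median excess of 0.21. Chromosome 20 had a median of 0.18 over 331 tested genes and holds 3 members, PSMA7, ADRM1 and PSMF1. Chromosome 9 had a median of -0.20, with 49.3% of its 511 tested genes called lower and 10.6% higher, against 16.1% and 29.1% elsewhere, and holds PSMB7 and PSMD5, the members with the largest falls. Over all 44 members the fold change followed that of the neighbours with a Pearson r of 0.838 and a Spearman rho of 0.648, and over the 38 off chromosome 14 with 0.649 and 0.453. These are correlations across genes of the same 6 libraries. In 35 members the value lay above the neighbours' median and in 9 below, from -0.16 in PSMA1 to 0.35 in PSMD2, with a median excess of 0.16. The neighbours are not matched to the members for level, and tested genes at 50 FPKM or more had a median of 0.19 against 0.053 for all tested genes. The part of chromosomal position in each member's difference was not tested beyond these values.

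**Figure D2:**
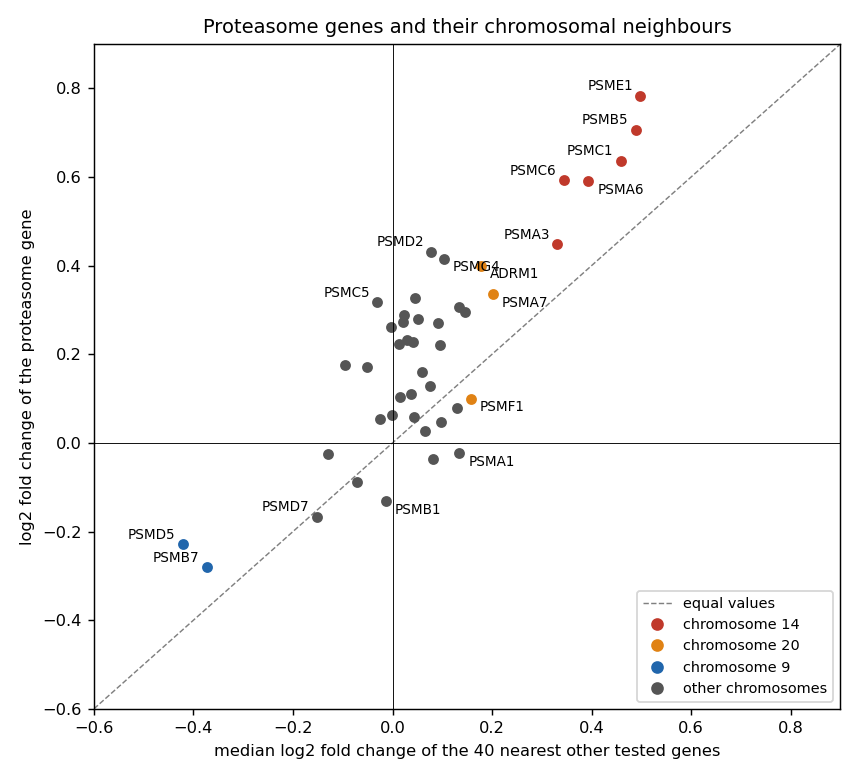
Each point is a tested proteasome gene, with its log2 fold change (OVER43 minus EV) on the vertical axis and the median of the 40 nearest other tested genes (fewer near chromosome ends) on the horizontal axis. The 6 chromosome 14 genes lie at the upper right, PSMB7 and PSMD5 of chromosome 9 at the lower left, and 35 of 44 points lie above the line of equal values.

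Without chromosome 14, 22 of 38 members were higher (57.9%) and 4 lower, with a median of 0.16. Without chromosomes 14, 9 and 20, a choice made after seeing the data, 19 of 33 were higher (57.6%) and 2 lower, with a median of 0.17. Over all tested genes, 61.2% at 50 FPKM or more (median 0.19) and 32.8% at 10 to 50 FPKM (0.081) were called higher. Under TMM, 19 of the 38 were higher and 4 lower (median 0.11). Quantile scaling gave 10 higher and 12 lower (-0.010), and equal sums gave 10 and 8 (0.024). PSMD2, the scaffold Rpn1 of the cap, stood at 712.4, 718.7 and 720.3 FPKM in OVER43, while EV gave 541.1, 552.1 and 502.5. Its log2 fold change of 0.43 (limma adjusted p = 5.97e-05) was the largest off chromosome 14, while its 40 neighbours had a median of 0.078. Its level is a sum over transcripts. The largest part, 43.6% of the EV level, came from the protein-coding ENST00000439383.1 of 2633 bases. That transcript stood at 310.0 ± 6.44 FPKM against 231.9 ± 4.15 FPKM and was called higher. Short noncoding entries add to the level of the gene: the transcript ENST00000459910.1, annotated as processed and 676 bases long in GENCODE 29, gave 24.1% of the EV level. The full-length transcript ENST00000310118.4, of 3449 bases, stood at 111.5 ± 2.37 FPKM against 78.76 ± 3.80 FPKM and was also called higher.

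PSMG4, a small chaperone of 20S assembly on chromosome 6, stood at 22.28, 21.47 and 22.03 FPKM in OVER43, while EV gave 14.34, 18.29 and 16.16, a log2 fold change of 0.42 (limma adjusted p = 0.00408, and 0.0515 without the filter). ADRM1, the ubiquitin receptor Rpn13 on chromosome 20, stood at 125.6, 130.1 and 137.4 FPKM in OVER43, while EV gave 97.69, 102.3 and 97.11, a log2 fold change of 0.40 (limma adjusted p = 0.000177). In both the groups did not overlap, and EV varied more than OVER43 in PSMG4. PSMD9, a chaperone of the ATPase ring on chromosome 12, stood at 53.56, 49.12 and 54.83 FPKM in OVER43, while EV gave 43.21, 37.78 and 44.14 (0.33, limma adjusted p = 0.00534). Its call was lost under equal sums (adjusted p = 0.0554) and without the filter (0.065).

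**Figure D3:**
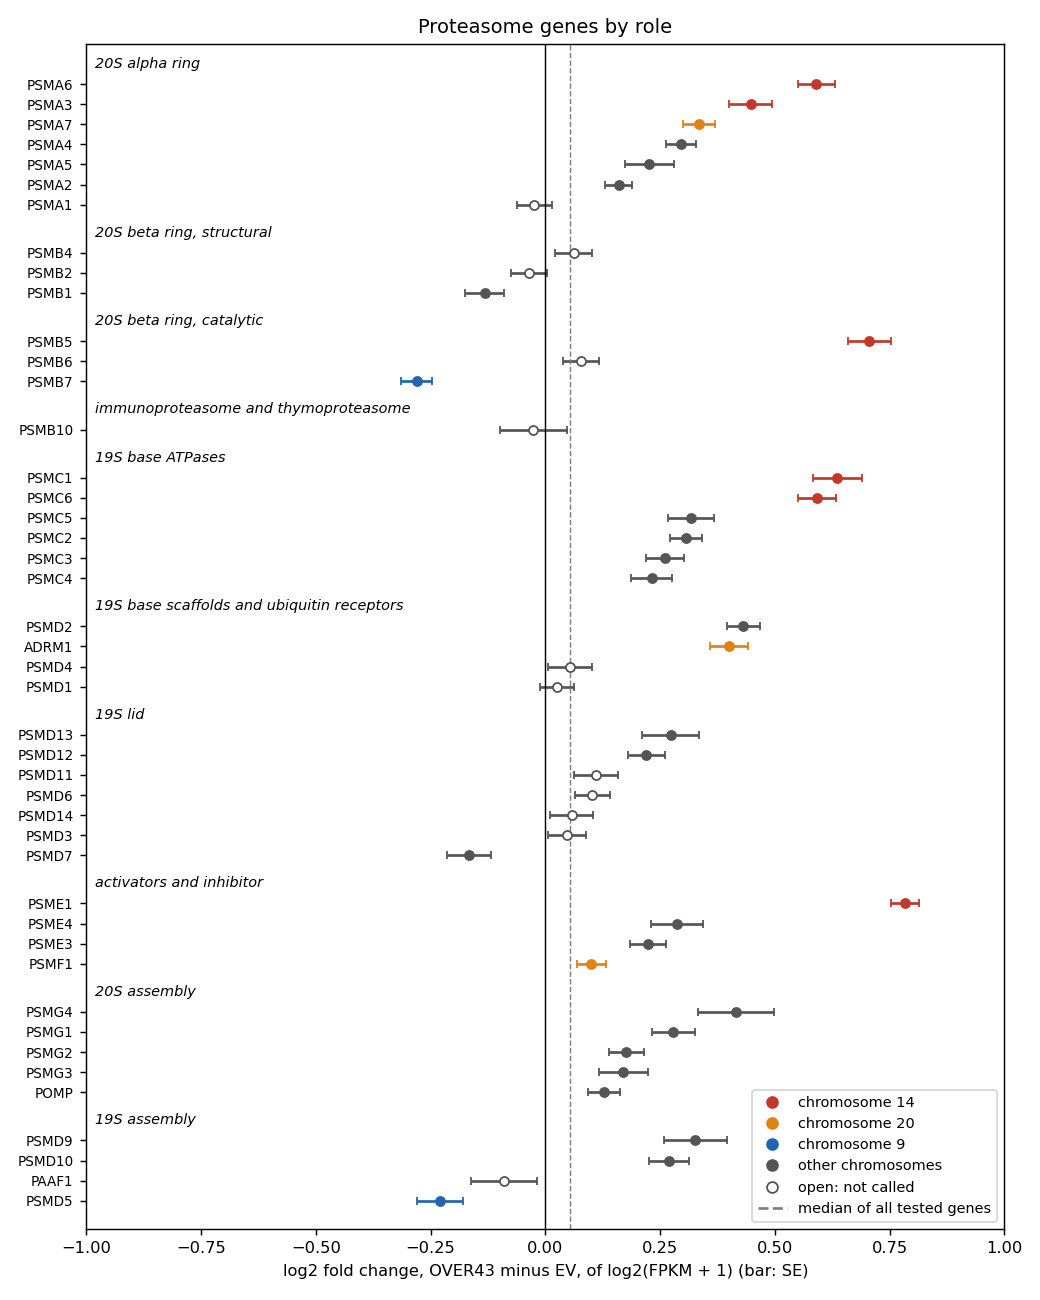
Log2 fold change (OVER43 minus EV) of each of the 44 tested proteasome genes with its standard error, grouped by role, with filled points for called genes and open points for those not called. The 6 chromosome 14 genes lie at the right of their groups, from 0.45 to 0.78, and the dashed line marks the median of all tested genes, 0.053.

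In the alpha ring, which gates the core, 6 of 7 tested subunits were higher, with a median log2 fold change of 0.30. Besides PSMA6 and PSMA3, these were PSMA7 at 319.1 ± 14.4 against 252.6 ± 2.32 FPKM, PSMA4 at 201.3 ± 1.04 against 163.9 ± 5.85 FPKM, PSMA5 and PSMA2. PSMA1 was not called, at 157.8 ± 4.20 against 160.5 ± 6.61 FPKM, and its groups overlapped. All 7 tested subunits had means above 50 FPKM, where 61.2% of all tested genes were called higher, with a median of 0.19. With quantile scaling 4 subunits of the ring were higher and 1, PSMA1, lower, and with equal sums the counts were likewise 4 and 1. The subunits of a ring are present in equal numbers in the protein, but their FPKM were not equal. The highest exceeded the lowest 2.58 to 2.89 times in the EV libraries and 2.78 to 2.90 times in the OVER43 libraries. PSMA7 was the highest in all 6 libraries. By group mean the lowest was PSMA3 in EV and PSMA5 in OVER43, although in OVER43 library 2 PSMA2 was lower than PSMA5. PSMA8, the testis form of an alpha subunit, did not exceed 0.0826 FPKM. The second row under the symbol PSMA2 overlaps the first in the genome, so the division of reads between them is uncertain, and it stood at 7.67 against 8.91 FPKM and was not called.

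The beta ring was mixed. Among its noncatalytic subunits, PSMB3 matched no row by symbol, PSMB4 stood at 229.4 ± 11.1 against 219.6 ± 6.32 FPKM and PSMB2 at 54.89 ± 1.14 against 56.32 ± 1.58 FPKM, neither called. PSMB1 stood at 104.9, 111.0 and 115.5 FPKM in OVER43, while EV gave 124.4, 121.1 and 117.7. It fell by 0.13 on the log2 scale (limma adjusted p = 0.0349), with OVER43 library 2 close to EV library 2, and the call was lost when any of 4 libraries (OVER43 0 or 1, EV 0 or 1) was left out (adjusted p 0.07 to 0.114). With a replicate block the adjusted p was 0.0767. Under quantile scaling all 3 were called lower.

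The 3 catalytic subunits, which occupy the same ring in equal numbers, gave 3 different results. PSMB5 rose, as above. PSMB6, the caspase-like subunit on chromosome 17, stood at 117.8, 117.4 and 126.6 FPKM in OVER43, while EV gave 111.4, 115.5 and 115.6. Every OVER43 library lay above every EV library, but the difference of 0.078 was not called (limma adjusted p = 0.140), and it was negative with equal sums (-0.065). Under quantile scaling PSMB6 was called lower (-0.12, adjusted p = 0.0288), so that 1 catalytic subunit was then higher and 2 were lower. PSMB7, the trypsin-like subunit (hg19 chromosome 9, 127115745 to 127177723), stood at 243.7, 251.3 and 262.9 FPKM in OVER43, while EV gave 310.2, 305.9 and 304.6. It fell by 0.28 (SE 0.033, limma adjusted p = 0.000314), with a wide gap between the groups, and its 40 neighbours had a median of -0.37.

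Ratios within a library do not depend on a single scaling factor. They restate the values above and are not further support. The ratio of PSMB5 to PSMB7 was 0.887 ± 0.00678 in OVER43 and 0.446 ± 0.0212 in EV. PSMB5 to PSMB6 was 1.86 ± 0.0272 against 1.20 ± 0.0782, and PSMB7 to PSMB6 was 2.10 ± 0.0399 against 2.69 ± 0.0819. In each case the groups did not overlap, and the exact two-sided permutation test gave p = 0.1, the smallest that 3 libraries against 3 can give. For the ratios with PSMB7 this outcome was fixed in advance, since PSMB7 lay lower and PSMB5 and PSMB6 higher, each without overlap. The chromosomes of these 3 genes, 14, 17 and 9, had medians of 0.43, 0.10 and -0.20.

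**Figure D4:**
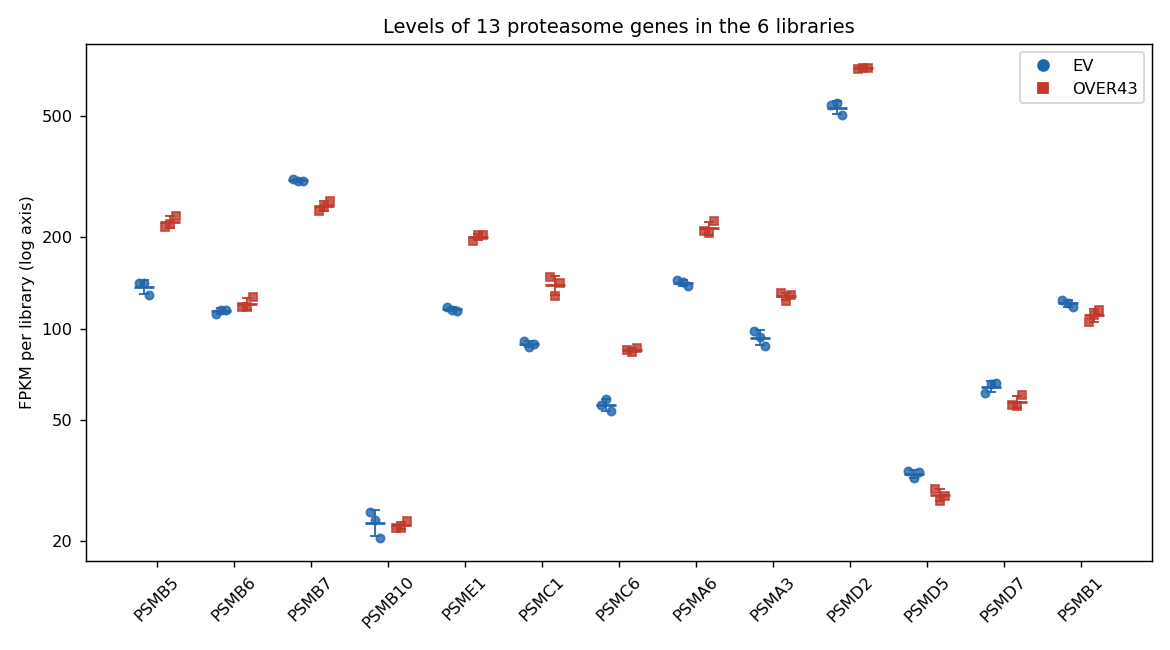
FPKM of 13 proteasome genes in each of the 3 EV and 3 OVER43 libraries on a log axis, with horizontal bars at the mean and error bars of 1 SD. PSMB5 lies higher and PSMB7 lower in OVER43 than in EV, while PSMB6 and PSMB10 differ little.

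Of the immunoproteasome subunits, PSMB10, the counterpart of PSMB7, was measurable, at 22.21, 22.16 and 23.30 FPKM in OVER43, while EV gave 24.99, 23.60 and 20.58. The groups overlapped and it was not called (-0.026, limma adjusted p = 0.791). Its share of the pair with PSMB7 was 8.20 ± 0.134% in OVER43 and 6.98 ± 0.584% in EV (exact permutation p = 0.1, the smallest possible), and of the 2 genes PSMB7 was the one that was called. PSMB8 and PSMB9, the counterparts of PSMB5 and PSMB6, are listed at 0 in all 6 libraries on chromosome 6. Summed over their 8 rows each, they reached at most 0.0849 and 0.000608 FPKM. These zeros cannot be read as absence. Of 192 symbols on chromosome 6 that also have a row on an alternative MHC haplotype, 4 had a mean of 1 FPKM or more in EV on chromosome 6, and RPS18, a ribosomal protein gene of that region, summed to only 0.00995 to 0.460 FPKM. The shares of PSMB8 and PSMB9 in their pairs were therefore not computed.

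All 6 ATPases of the cap were called higher, with log2 fold changes from 0.23 in PSMC4 to 0.64 in PSMC1 and a median of 0.31. All 6 had means above 50 FPKM, where 61.2% of all tested genes were called higher, with a median of 0.19. PSMC1 and PSMC6 lie on chromosome 14, where 68.2% of tested genes were called higher. The 4 off chromosome 14 were PSMC5 at 108.0 ± 3.07 against 86.59 ± 5.48 FPKM, PSMC2 at 109.6 ± 1.66 against 88.45 ± 2.41 FPKM, PSMC3 at 86.79 ± 3.63 against 72.22 ± 1.44 FPKM and PSMC4 at 71.38 ± 3.88 against 60.57 ± 0.519 FPKM. With quantile scaling 3 of the 6 were called higher, with equal sums 5, and none was lower. The levels of the 6 were less even in OVER43, where the highest exceeded the lowest 1.87 to 2.11 times, than in EV, where it did so 1.55 to 1.66 times. By group mean PSMC1 was the highest in both groups, but in EV library 1 PSMC5 and PSMC2 lay above it. The lowest was PSMC6 in each EV library and PSMC4 in each OVER43 library.

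Among the scaffolds and ubiquitin receptors of the base, PSMD2 and ADRM1 were higher, as above. PSMD1, the other scaffold, stood at 69.45 ± 1.74 against 68.19 ± 1.34 FPKM, and the receptor PSMD4 at 90.39 ± 2.80 against 87.11 ± 4.92 FPKM, neither called. Under quantile scaling both were called lower (adjusted p 0.019 and 0.0312), and under equal sums PSMD1 was (0.0204). In the lid, which holds the deubiquitinase, 2 of the 7 subunits in the set were higher and 1 was lower, with a median of 0.10. The small lid subunit SEM1, which the symbol rule does not match, is counted in another list below. Over all tested genes at 50 FPKM or more, 61.2% were called higher and 12.4% lower. PSMD13 stood at 114.2 ± 9.67 against 94.22 ± 4.49 FPKM and PSMD12 at 106.0 ± 1.26 against 90.95 ± 4.18 FPKM, both called higher. PSMD14, the deubiquitinase itself, stood at 69.05 ± 1.39 against 66.37 ± 3.61 FPKM, and PSMD3, PSMD6 and PSMD11 differed by 0.048 to 0.11 on the log2 scale, none of the 4 called. Under quantile scaling and under equal sums none of these 7 lid subunits was higher.

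PSMD7, the partner of PSMD14 on chromosome 16, stood at 56.13, 55.53 and 60.31 FPKM in OVER43, while EV gave 61.34, 65.71 and 66.29. It fell by 0.17 on the log2 scale (limma adjusted p = 0.0229), with OVER43 library 2 and EV library 0 about 1 FPKM apart. The call was lost when any of 4 libraries (OVER43 0 or 1, EV 1 or 2) was left out (adjusted p 0.0671 to 0.0737), and its neighbours had a median of -0.15.

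All 4 tested activators and inhibitors were called higher. Over all tested genes, 61.2% at 50 FPKM or more and 32.8% at 10 to 50 FPKM were called higher. Besides PSME1, PSME4, the large activator PA200, stood at 35.56 ± 2.38 against 28.91 ± 0.634 FPKM and PSME3, the nuclear PA28 gamma, at 147.2 ± 3.57 against 126.0 ± 5.24 FPKM. PSMF1, the inhibitor PI31, stood at 130.2 ± 1.60 against 121.5 ± 3.08 FPKM (0.10, limma adjusted p = 0.0326). Its call was lost without any of 5 libraries (all but EV 1; adjusted p 0.0577 to 0.106) and with a replicate block (0.0715), and under quantile scaling it was called lower (-0.092, adjusted p = 0.0325). With quantile scaling 2 of the 4 were higher, and with equal sums 1, PSME1.

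All 5 factors of 20S assembly were called higher, with a median of 0.18. Their levels lay at 10 to 50 FPKM, where 32.8% of all tested genes were called higher, or above, where 61.2% were. PSMG1 and PSMG2, which pair to assemble the alpha ring, stood at 82.80 ± 4.42 against 68.02 ± 1.97 FPKM and at 50.39 ± 0.480 against 44.48 ± 0.959 FPKM. PSMG3, the partner of PSMG4, stood at 38.56 ± 1.16 against 34.18 ± 1.95 FPKM and POMP, which joins the 2 parts of the core, at 88.06 ± 1.35 against 80.52 ± 2.07 FPKM. The call of PSMG3 was lost without any of 5 libraries (all but EV 2; adjusted p 0.0524 to 0.0937) and that of POMP without EV 0 (adjusted p = 0.0622). Under TMM 3 of the 5 were higher, and under quantile scaling and equal sums 2, PSMG4 and PSMG1.

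Of the 4 chaperones of the cap, PSMD9 and PSMD10 were higher, PSMD10 (gankyrin) at 47.84 ± 1.51 against 39.51 ± 0.919 FPKM, and PSMD5 was lower. Over all tested genes, 28.4% were called higher and 17.5% lower, and at 10 to 50 FPKM 32.8% and 16.0%. Quantile scaling left 2 of the 4 higher and 1 lower, and equal sums gave 1 higher and 2 lower. PAAF1 stood at 9.30 ± 0.625 against 9.95 ± 0.435 FPKM and was not called. PSMD5 (hg19 chromosome 9, 123577774 to 123616651) stood at 29.71, 27.21 and 28.13 FPKM in OVER43, while EV gave 34.16, 32.23 and 33.76. It fell by 0.23 (limma adjusted p = 0.00658), the groups did not overlap, and its 40 neighbours had a median of -0.42.

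At transcript level the calls were fewer. Of 424 transcript entries of the members, 176 were tested, 27 were called higher and 2 lower, where 9.85% and 4.7% of all 30015 tested transcripts were. Among the leading transcripts of the 44 members, 15 were higher and 2, those of PSMB7 and PSMD5, lower, and 35 had a fold change above 0. The shares over the leading transcripts of all tested genes are not given here, so these counts have no background beside them. No transcript was called against the direction of its gene, but gene levels are sums over transcripts, so this is not further support. In 25 members the leading transcript held at least 80% of the EV level of the gene. PSMC3 was among the rest: ENST00000602866.1 stood at 58.65 ± 4.22 against 43.00 ± 4.12 FPKM and was called higher, while ENST00000298852.3 stood at 21.95 ± 3.15 against 22.13 ± 3.83 FPKM and was not called.

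The isoform table also has entries that span a whole gene with its introns. Summed over the 6 chromosome 14 members they came to 2.53 ± 0.119 against 2.04 ± 0.185 FPKM, a ratio of 1.24. Summed over the other 38 tested members they stood at 14.3 ± 0.563 against 15.8 ± 0.480 FPKM, a ratio of 0.902. In both sums the groups did not overlap, in opposite directions, and the exact permutation test gave p = 0.1, the smallest possible. What these entries measure is not stated in the sources used here, and unspliced RNA and stray reads cannot be told apart in them.

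In the authors' deposited table, 16 members had a q-value under 0.05, 15 of them higher in OVER43 and 1, PSMB7, lower. By limma 32 members were called. PSMD2 (Cuffdiff q = 0.0661), PSMG4 (0.114), PSMC2 (0.103) and PSMD5 (0.0614) were among those called by limma only. Among the genes tested with limma, 24.6% had such a q-value there, a share not split by direction or level.

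Of 13 genes known to control proteasome transcription, 3 were called higher (23.1%) and 2 lower (15.4%), near the 28.4% and 17.5% of all tested genes. Their median was 0.11. NFE2L1, the main activator of proteasome genes, stood at 48.09, 52.20 and 45.76 FPKM in OVER43, while EV gave 47.61, 40.60 and 43.58. The groups overlapped and the difference of 0.15 was not called (limma adjusted p = 0.120). It was 0.033 under quantile scaling and 0.0055 under equal sums, and leaving out each library moved it from 0.092 to 0.20, with a call without EV library 0 (adjusted p = 0.0451). KEAP1, which directs the degradation of the related factor NRF2, was the highest of the called genes at 48.25 ± 3.03 against 35.36 ± 1.65 FPKM, and MAFF, a small partner of these factors, the lowest at 6.21 ± 0.699 against 9.21 ± 0.441 FPKM.

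Genes whose products work at the proteasome or downstream of it were mixed. Of 19 deubiquitinases, ligases and shuttle factors bound to the proteasome, 7 were higher (36.8%, against 28.4% of all tested genes) and 2 lower, with a median of 0.081. Under quantile scaling 4 were higher and 5 lower (median -0.028), where 21.1% and 19.9% of all tested genes were. Under equal sums 3 were higher and 5 lower (-0.060), where 15.3% and 29.3% of all tested genes were. PITHD1, which binds the cap, had the largest rise (0.34), and ECPAS, an adaptor of the proteasome on chromosome 9, the largest fall (-0.31). Of 9 interferon-inducible antigen processing genes, 6 were tested, and TAP1, TAP2 and TAPBP on chromosome 6 were not. TAP1 and TAP2 have 8 rows each, as PSMB8 and PSMB9 do, so their values near 0 cannot be read as absence either. Of the 6 tested genes, 2 were higher (33.3%, against 28.4% of all tested genes) and 1 was lower (16.7%, against 17.5%). These were led by the peptidases ERAP2 (0.39) and ERAP1 (-0.34), and the call of ERAP1 was lost without any of 4 libraries (OVER43 0 or 2, EV 0 or 1; adjusted p 0.0513 to 0.0569).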

How the data were processed

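Per the submitters' processing notes, Cuffdiff was run on the reads, without a stated version, and the authors deposited its gene table and an isoform table of 251748 entries. Aligner and strand: not given in the sources used here. For each library the deposited unit is FPKM, which Cuffdiff scales between libraries. The deposited log2 fold change is EV over OVER43, and the authors' test statistic is a score. Of the deposited p-values and q-values, only the q-values were used, beside the members' own calls. The notes name hg38, but the loci are hg19 positions: all 48 members lie on the RefSeq chromosome and 8 overlap their GRCh38 position. Some loci span several overlapping genes. Columns are numbered 0 to 2 where the labels number replicates 1 to 3, so columns are matched to groups and not to single samples. The number of per-library columns not used is 0.

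The tables hold no counts, so the test for FPKM was used. The fit was limma 3.58.1 in R 4.3.3, with trend and robust options, over genes or transcripts that reached 1 FPKM in 3 or more of 6 libraries, on log2(FPKM + 1), two-sided, with group as the only term and Benjamini-Hochberg adjusted p under 0.05. A pseudocount understates the change of low genes. Single ratios and sums were compared by an exact permutation test over the 10 splits (Python 3.11.15, scipy 1.17.1). Cuffdiff gave no estimate for 19 genes, none of them a member. Depth came from the steps of low FPKM values, at least 99.1% of which lay within 0.1 of a whole fragment. Tested on simulated data for this comparison (12008 genes), the fit called 62.1% of genes changed by 0.5 (log2) and 89.9% of those changed by 1, and made 5 false calls. The simulation left most genes unchanged and put no scaling difference between the groups, so it does not cover errors of scaling. Its changes were also larger than the members' median of 0.22.

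The members, role lists and tests were chosen with earlier results of these data known. Values per library are given for the catalytic subunits and their counterparts, up to 6 of the largest called differences in each direction (only 4 members were called lower), the 4 members whose promoters are shown, NFE2L1 and GJA1, and other lists are named by their highest and lowest called gene. PSME2 was added because the table joins it to another symbol, and SEM1 because it is a lid subunit outside the rule. Further members are given as means by role. The symbol the rule leaves out and some results on other genes are not reported here. Alternatives covered scaling (TMM in an own implementation, quantile, equal sums), the filter (none, or 5 FPKM), the pseudocount (0.1), a replicate block, and leaving out single libraries or chromosomes.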

Additional observations from a re-analysis of the deposited data

How the results depend on the processing

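The direction of most small differences rests on the scaling between libraries, whose FPKM sums differ by group. Against 28 higher and 4 lower members, quantile scaling gave 16 and 12, equal FPKM sums gave 16 and 8, and without a filter 22 were higher and 2 lower. Leaving out each library gave 26 to 27 higher and 2 to 4 lower, and 27 of the 32 called members kept their call without each library. Over all genes, 4696 to 4928 were called when each library was left out, against 5600. The share of all called genes that kept their call is not given here. The members' median of 0.22 was 0.17 under TMM, 0.046 under quantile scaling, 0.079 under equal sums, 0.19 to 0.22 when each library was left out, 0.16 off chromosome 14 and 0.17 off chromosomes 14, 9 and 20, where 2 members were lower. The PSMB10 share differed by 1.22 percentage points as deposited, 1.71 under quantile scaling and 0.891 to 1.46 when each library was left out. Called member transcripts were 13 to 20 higher and 1 lower when each library was left out, against 27 and 2.

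Same-numbered deviations correlated at 0.0166, -0.0909 and 0.0285, and differently numbered ones at -0.0988 to 0.0973. These values show no pairing by library number, but they cannot exclude it. With a replicate block, 27 members were higher and 3 lower (PSMF1 and PSMB1 lost their calls), 17 member transcripts were higher and 1 lower, and 5316 genes were called in all, against 5600. Calls over all genes ranged from 3959 (no filter) to 5588 (pseudocount 0.1) under the alternatives, and tests that need counts were not run on these FPKM values.

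Single differences that changed sign were, under quantile scaling, POMP (-0.054), PSMA2 (-0.033), PSMB4 (-0.11), PSMB6 (-0.12), PSMD1 (-0.12), PSMD11 (-0.092), PSMD14 (-0.092), PSMD3 (-0.11), PSMD4 (-0.13), PSMD6 (-0.074), PSMF1 (-0.091), EIF3F (-0.054) and TCP1 (-0.040). Under equal sums they were POMP (-0.014), PSMB4 (-0.081), PSMB6 (-0.065), PSMD1 (-0.12), PSMD11 (-0.032), PSMD14 (-0.084), PSMD3 (-0.094), PSMD4 (-0.088), PSMD6 (-0.040), PSMF1 (-0.042) and EIF3F (-0.014), and under TMM PSMD1 (-0.025) and PSMD3 (-0.0036). When each library was left out, PSMA1 ranged from -0.053 to 0.0064 and PSMB10 from -0.10 to 0.032. Beyond the scaling itself, the cause was not tested. Of 790 values of 61 genes under alternatives, 692 kept direction and call.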

Other observations

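Other large protein assemblies are set beside the proteasome as values. The lid is built like the COP9 signalosome, which removes the ubiquitin-like NEDD8, and like eIF3, a translation initiation complex. Of 10 COP9 genes, 4 were called higher and 2 lower, with a median log2 fold change of 0.10. Over all tested genes, 28.4% were called higher and 17.5% lower, and at 50 FPKM or more 61.2% and 12.4%. COPS9 had the largest rise, at 158.6 ± 18.4 FPKM in OVER43 against 124.3 ± 2.34 FPKM in EV (SD, n = 3 each), and COPS7B the largest fall, at 21.01 ± 0.973 against 28.07 ± 1.15 FPKM. With quantile scaling 1 COP9 gene was higher and 3 lower (median -0.020), with equal sums 2 and 3 (-0.043), and COPS9 lost its call with quantile scaling (limma adjusted p = 0.0979). Of 13 eIF3 genes, 11 were higher and 0 lower by limma, with a median of 0.21, from EIF3F (0.13) to EIF3B (0.39) among those called. With quantile scaling 4 eIF3 genes were higher and 1 lower, and with equal sums 5 and 1. Over all tested genes, 21.1% were called higher and 19.9% lower with quantile scaling, and 15.3% and 29.3% with equal sums.

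The chaperonin CCT folds actin and tubulin and has 8 subunit genes. All 8 were called higher by limma, with a median of 0.33, from TCP1 at 193.2 ± 6.12 against 173.0 ± 7.38 FPKM to CCT2 at 525.2 ± 9.63 against 364.5 ± 13.8 FPKM. With TMM 7 of the 8 were higher, and with quantile scaling and with equal sums 5. All 8 had means above 50 FPKM, where 61.2% of all tested genes were called higher as deposited, with a median of 0.19.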
